A study of Mus musculus with 16 samples.

Results

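The interferon-stimulated genes described here are 39 genes that cells switch on when they sense interferon, picked by symbol from the gene counts of a mouse liver RNA-seq experiment. All 39 were found among the 23420 genes of the table, and no threshold on their values was used to choose them. The livers came from 16 male wild-type C57BL/6J mice in 4 groups of 4. FEN-HFD mice were fed a 45% high-fat diet (HFD) that carried 0.04% fenretinide, a synthetic retinoid, for 20 weeks or for 7 days, and HFD mice were fed that diet without the drug for the same times. All 4 groups therefore shared the high-fat diet, and the age of the mice was not given in the sources used here. The 20-week and 7-day mice were different animals, so the time on diet, the age of the mice and anything else that separated the cohorts cannot be told apart. Each library was made from the RNA of 1 whole liver sample, in which fewer cells of a type and less RNA per cell cannot be told apart.

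Interferons are secreted proteins that warn cells of infection. Type I interferons act through receptors and Janus kinases that lead a complex with STAT2 and IRF9 to bind the interferon-stimulated response element (ISRE) in the promoters of antiviral genes. Interferon gamma, made mainly by T cells and natural killer (NK) cells, acts through factors that bind the gamma-activated sequence (GAS) and raises guanylate-binding proteins, immunity-related GTPases and genes of antigen processing. Both hepatocytes and Kupffer cells, the resident macrophages of the liver, respond to interferons. Retinoids have a known link to this system, since RIG-I, the product of Ddx58, was named as retinoic acid-inducible gene I in human leukaemia cells, and Irf1 is also induced by retinoic acid in cultured cells.

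The promoters of 6 members show these elements, with antiviral genes first and genes typical of interferon gamma after them. Each stretch holds the 150 bases before the start site in RefSeq (GRCm38.p6), on the strand of the gene, with matches to the ISRE core (GAAA, 2 bases, GAAA) or to the GAS (TTC, 3 bases, GAA) on either strand in capitals.
Ifit1 (chr19:34640739-34640888, plus strand): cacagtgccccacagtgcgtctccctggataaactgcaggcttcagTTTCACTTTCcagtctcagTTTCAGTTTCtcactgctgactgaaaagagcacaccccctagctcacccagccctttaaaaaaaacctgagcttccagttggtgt
Isg15 (chr4:156200819-156200968, minus strand): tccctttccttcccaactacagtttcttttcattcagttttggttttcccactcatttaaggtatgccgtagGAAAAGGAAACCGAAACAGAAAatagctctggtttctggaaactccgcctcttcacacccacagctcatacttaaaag
Rsad2 (chr12:26456453-26456602, minus strand): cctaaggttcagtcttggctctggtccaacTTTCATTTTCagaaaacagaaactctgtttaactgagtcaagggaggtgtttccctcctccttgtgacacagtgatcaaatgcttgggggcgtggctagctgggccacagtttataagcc
Irf1 (chr11:53769864-53770013, plus strand): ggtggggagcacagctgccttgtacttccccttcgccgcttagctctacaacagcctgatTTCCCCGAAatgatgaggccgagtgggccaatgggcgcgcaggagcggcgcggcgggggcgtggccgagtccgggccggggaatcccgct
Gbp2 (chr3:142620513-142620662, plus strand): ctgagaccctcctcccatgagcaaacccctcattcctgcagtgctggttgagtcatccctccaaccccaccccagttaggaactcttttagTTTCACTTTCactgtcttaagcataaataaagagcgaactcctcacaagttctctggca
Igtp (chr11:58199406-58199555, plus strand): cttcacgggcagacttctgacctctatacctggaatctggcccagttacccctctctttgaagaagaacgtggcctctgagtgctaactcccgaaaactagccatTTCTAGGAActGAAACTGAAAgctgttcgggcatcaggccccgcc
Ifit1 holds 2 separate ISRE matches that begin 104 and 85 bases before the start. Isg15 holds 3 that overlap in 1 run from 78 to 57 bases before the start. Irf1 has a GAS match alone, and in Igtp a GAS match at 45 bases and an ISRE match at 34 bases before the start stand side by side. For Irf1, which has 2 start sites in RefSeq, the upstream one is shown.

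Of the 39 members, 30 had a promoter window in RefSeq, searched over 300 bases, the last 50 of them after the start. An ISRE core was present in 17 of 30 members (56.7%), against 3.99% of all 27025 genes with such a window. The GAS was present in 9 of 30 (30.0%), against 9.55% of all genes. A retinoic acid response element (GNTCA, 6 bases, GNTCA) was found in 0 of the 30, against 0.988% of all genes. These matches describe letters in a short window and do not show that a factor was bound. Oas2, Usp18, Mx1, Mx2, Parp14, Dhx58, Zbp1, Gbp6 and Iigp1 were not matched to a window.

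Levels are given in CPM, read counts scaled to library size with trimmed-mean (TMM) factors over all 16 libraries. The median CPM per kilobase of exon over the 16 livers was highest for Iigp1, an immunity-related GTPase, at 104, and for Bst2 (tetherin, which holds budding virus at the cell surface), at 102. It was lowest for Oas2, at 0.499, and Oas3, at 0.315, which make the 2′-5′ oligoadenylates that activate RNase L. Of the transcription factors, Irf1 stood at 12.04, Irf7 at 10.3, Stat2 at 7.31 and Irf9 at 7.05 CPM per kilobase. In the GENCODE M21 annotation (mm10) Igtp shares its strand with Irgm2 and Irf9 with Rnf31, while Psmb9 and Tap1 overlap on opposite strands. Reads of these pairs, and of the closely related Gbp, Ifit and Oas genes, could have been split between neighbours or copies when they were counted.

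Total counts were 19218230 to 32546829 per library, and 2 libraries stood apart. In the library of HFD mouse 143 (7 days), the 39 members took 1.16% of all counts (95% Wilson interval 1.16 to 1.17), against 0.156% to 0.182% in its 3 group-mates. In the library of FEN-HFD mouse 29 (20 weeks), the ribosomal RNA precursor Rn45s took 53.1% of counts (53.0 to 53.1) and Lars2 4.36% (4.36 to 4.37), against at most 1.46% and 0.0499% in the other 15 libraries. Such intervals cover counting error only. Without those 2 genes that library held 8357336 counts, of which the members took 0.283%, against 0.129% to 0.147% in its 3 group-mates. Each comparison of the members below is therefore given with and without mouse 29 or mouse 143, where it contains that mouse. As a check of the drug, the retinoic acid target Cyp26a1 was higher with fenretinide at 20 weeks (log2 fold change 6.19 ± 0.13 SE, edgeR adjusted p = 8.78e-09) and at 7 days (5.54 ± 0.60 SE, adjusted p = 0.0320), and without mouse 143 the 7-day value was 5.77 ± 0.67 SE (adjusted p = 0.0654).

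The levels of every mouse are given here for members of each role, with mouse 29 as the last value of the FEN-HFD livers at 20 weeks and mouse 143 as the second of the HFD livers at 7 days. Irf1 was at 46.7, 39.8, 39.5 and 110.1 CPM in FEN-HFD and 44.8, 40.6, 41.1 and 35.7 CPM in HFD livers at 20 weeks, and at 70.4, 48.0, 67.02 and 48.2 CPM in FEN-HFD and 49.3, 194, 53.7 and 47.8 CPM in HFD livers at 7 days. Irf7 was at 30.9, 26.1, 24.7 and 51.3 CPM in FEN-HFD and 31.7, 29.1, 35.9 and 30.2 CPM in HFD livers at 20 weeks, and at 37.2, 50.1, 60.3 and 55.6 CPM in FEN-HFD and 41.0, 147, 41.0 and 56.5 CPM in HFD livers at 7 days. For both factors these 2 mice were the highest of their groups. Ifit3, a partner of Ifit1, was at 14.6, 11.5, 13.9 and 24.3 CPM in FEN-HFD and 16.7, 23.7, 17.4 and 12.8 CPM in HFD livers at 20 weeks, and at 23.6, 23.9, 27.9 and 24.6 CPM in FEN-HFD and 19.3, 59.9, 23.9 and 29.0 CPM in HFD livers at 7 days. Oasl2, an Oas-like protein, was at 3.86, 3.92, 3.22 and 8.95 CPM in FEN-HFD and 3.89, 5.86, 3.27 and 4.08 CPM in HFD livers at 20 weeks, and at 6.37, 5.69, 6.07 and 7.49 CPM in FEN-HFD and 4.61, 17.8, 6.97 and 5.89 CPM in HFD livers at 7 days. Usp18 was at 8.50, 7.32, 7.19 and 16.4 CPM in FEN-HFD and 12.1, 15.5, 11.2 and 7.44 CPM in HFD livers at 20 weeks, and at 18.3, 20.9, 19.5 and 19.8 CPM in FEN-HFD and 16.4, 59.4, 20.4 and 21.8 CPM in HFD livers at 7 days. Mouse 143 was the highest of the 16 for these 3 genes, and the 7-day FEN-HFD livers lay close together for Usp18.

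Cxcl9 was at 6.06, 5.52, 7.39 and 45.9 CPM in FEN-HFD and 9.66, 12.5, 12.4 and 7.36 CPM in HFD livers at 20 weeks, and at 15.2, 16.3, 12.4 and 24.0 CPM in FEN-HFD and 10.4, 50.4, 13.5 and 15.4 CPM in HFD livers at 7 days. Cxcl10 was at 1.46, 1.76, 2.06 and 7.70 CPM in FEN-HFD and 3.85, 5.33, 1.77 and 1.21 CPM in HFD livers at 20 weeks, and at 3.66, 3.56, 1.83 and 2.51 CPM in FEN-HFD and 2.29, 19.9, 2.58 and 3.07 CPM in HFD livers at 7 days. Both chemokines were scarce in most livers and high in mice 29 and 143. Gbp2 was at 8.72, 9.04, 10.2 and 69.0 CPM in FEN-HFD and 11.8, 13.5, 12.2 and 10.4 CPM in HFD livers at 20 weeks, and at 18.4, 17.5, 17.2 and 22.9 CPM in FEN-HFD and 10.3, 118, 12.9 and 14.9 CPM in HFD livers at 7 days. Igtp was at 24.5, 23.3, 27.5 and 155 CPM in FEN-HFD and 30.0, 28.2, 38.6 and 27.1 CPM in HFD livers at 20 weeks, and at 50.2, 46.5, 49.7 and 56.5 CPM in FEN-HFD and 31.8, 905, 24.4 and 61.2 CPM in HFD livers at 7 days. Iigp1 was at 412, 402, 604 and 760.4 CPM in FEN-HFD and 364, 322, 464 and 385 CPM in HFD livers at 20 weeks, and at 797, 685, 641 and 659 CPM in FEN-HFD and 609, 5819, 587 and 607 CPM in HFD livers at 7 days. For Gbp2 and Igtp all FEN-HFD livers at 7 days lay above those of mice 21, 22 and 24 at 20 weeks. Psmb8 was at 52.5, 44.4, 44.5 and 91.5 CPM in FEN-HFD and 28.5, 33.8, 44.8 and 37.7 CPM in HFD livers at 20 weeks, and at 36.2, 49.9, 59.4 and 60.1 CPM in FEN-HFD and 36.4, 175, 38.6 and 52.6 CPM in HFD livers at 7 days. Tap1 was at 37.4, 37.1, 31.3 and 109 CPM in FEN-HFD and 32.1, 40.2, 41.9 and 37.5 CPM in HFD livers at 20 weeks, and at 35.1, 42.6, 48.2 and 52.8 CPM in FEN-HFD and 38.2, 198, 40.8 and 40.6 CPM in HFD livers at 7 days. Outside mice 29 and 143 the groups overlapped for Psmb8.

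**Figure D1:**
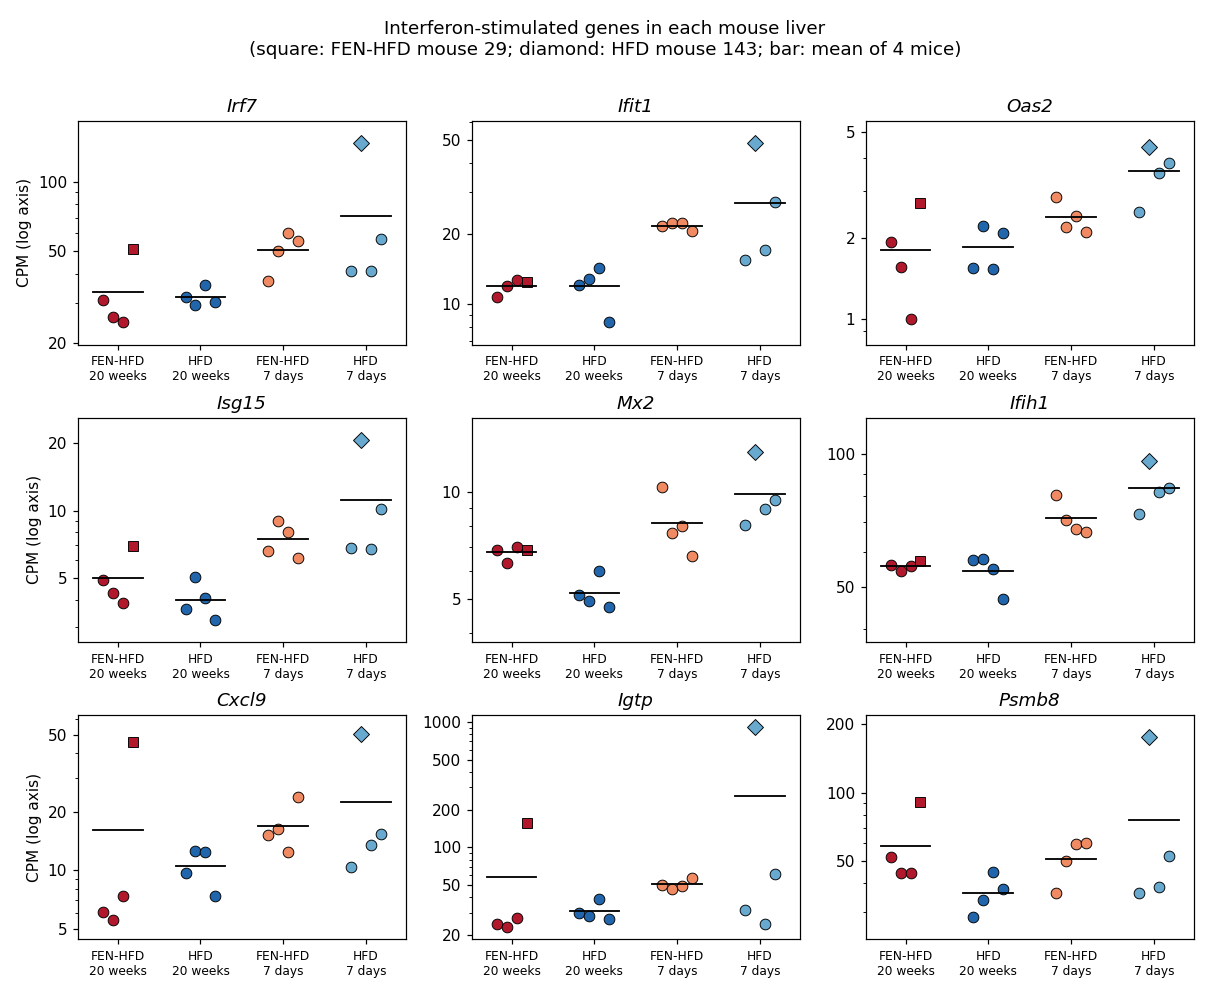
CPM (log axis) of 9 members, 1 for each role, in each of the 16 livers, with points for mice, a bar for the mean of 4 mice, a square for FEN-HFD mouse 29 and a diamond for HFD mouse 143. The diamond lies at 905 CPM for Igtp, where its 3 group-mates lie at 24.4 to 61.2 CPM, and for Ifih1 the 8 livers at 20 weeks lie at 46.8 to 57.7 CPM, below the 66.5 to 96.4 CPM of the 8 at 7 days.

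HFD mouse 143 was the highest of all 16 mice for 37 of 39 members, whereas it was the highest for 7.22% of the 13387 genes kept over all libraries. Its level was above all 3 group-mates for 38 members, with Oasl1 as the exception. This held for 27.8% of the 11752 genes that averaged 1 CPM or more in the group-mates. The level was more than 2-fold above their mean for 27 members and for 3.28% of those genes. The median member was 2.80-fold above the group-mates and the median gene 0.979-fold. Of the 38 genes that were more than 5-fold above, 10 were members. Another 28 were not members, and the largest ratio among them was that of Tgtp1 (103-fold), a GTPase of the same interferon gamma class. All of this is a description of 1 liver without a test.

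The excess of mouse 143 differed widely by role. All 8 GTPases, from families that take part in defence against pathogens held in vacuoles, were 7.26-fold to 23.1-fold above the group-mates. Igtp was at 905 CPM in mouse 143, against 24.4 to 61.2 CPM in the others. Iigp1 was at 5819 CPM, against 587 to 609 CPM, and Gbp2 at 118 CPM, against 10.3 to 14.9 CPM. For each of these 3 GTPases the group-mates lay far below mouse 143. The T cell attractants Cxcl9 and Cxcl10 were at 50.4 and 19.9 CPM, against 10.4 to 15.4 and 2.29 to 3.07 CPM. The antigen processing genes, which cut peptides (Psmb8 and Psmb9) and carry them to MHC class I (Tap1), were 4.12-fold to 4.98-fold above. The transcription factor Irf1 was at 194 CPM, against 47.8 to 53.7 CPM. Zbp1, a sensor of Z-form nucleic acids that can start cell death, was at 79.9 CPM, against 5.64 to 8.84 CPM.

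Other antiviral genes were also raised in the same liver. Ifi44 was 4.33-fold, Irf7 3.19-fold, Usp18 3.04-fold and Isg15 2.63-fold above the group-mates. The 3 Ifit genes, whose products bind viral RNA, were 2.44-fold to 2.80-fold above, and the 5 Oas genes 1.01-fold to 3.05-fold. The RNA sensors Ddx58 (RIG-I) and Ifih1 (MDA5) were at 48.2 and 96.4 CPM, against 35.9 to 44.0 and 73.0 to 83.5 CPM, so mouse 143 lay just above the top of its group for both. Stat2 and Irf9, members of the type I complex, were 1.46-fold and 1.26-fold above.

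FEN-HFD mouse 29 stood out for many of the same members, mostly by less. Its level was above all 3 group-mates for 35 of 39 members, beside 36.2% of the 11818 genes that averaged 1 CPM or more there. The level was more than 2-fold above their mean for 19 members, against 6.13% of those genes. The median member was 1.98-fold above. Gbp2 was at 69.0 CPM in mouse 29, against 8.72 to 10.2 CPM in the others, and Igtp at 155 CPM, against 23.3 to 27.5 CPM. Cxcl9 was at 45.9 CPM, against 5.52 to 7.39 CPM. These were the 3 members among the 46 genes more than 5-fold above, of which 43 were not members, and for Cxcl9 the ratio was larger in mouse 29 (7.25) than in mouse 143 (3.84). Iigp1 was at 760.4 CPM, against 402 to 604 CPM, and Ifit1 at 12.5 CPM, against 10.7 to 12.7 CPM, so mouse 29 was the highest for Iigp1 by a modest margin and lay within its group for Ifit1. Across the 39 members the log2 ratios of the 2 mice had a Pearson r of 0.78 and a Spearman rho of 0.82, a description over genes that are not independent, from 2 single livers with unlike depth.

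**Figure D2:**
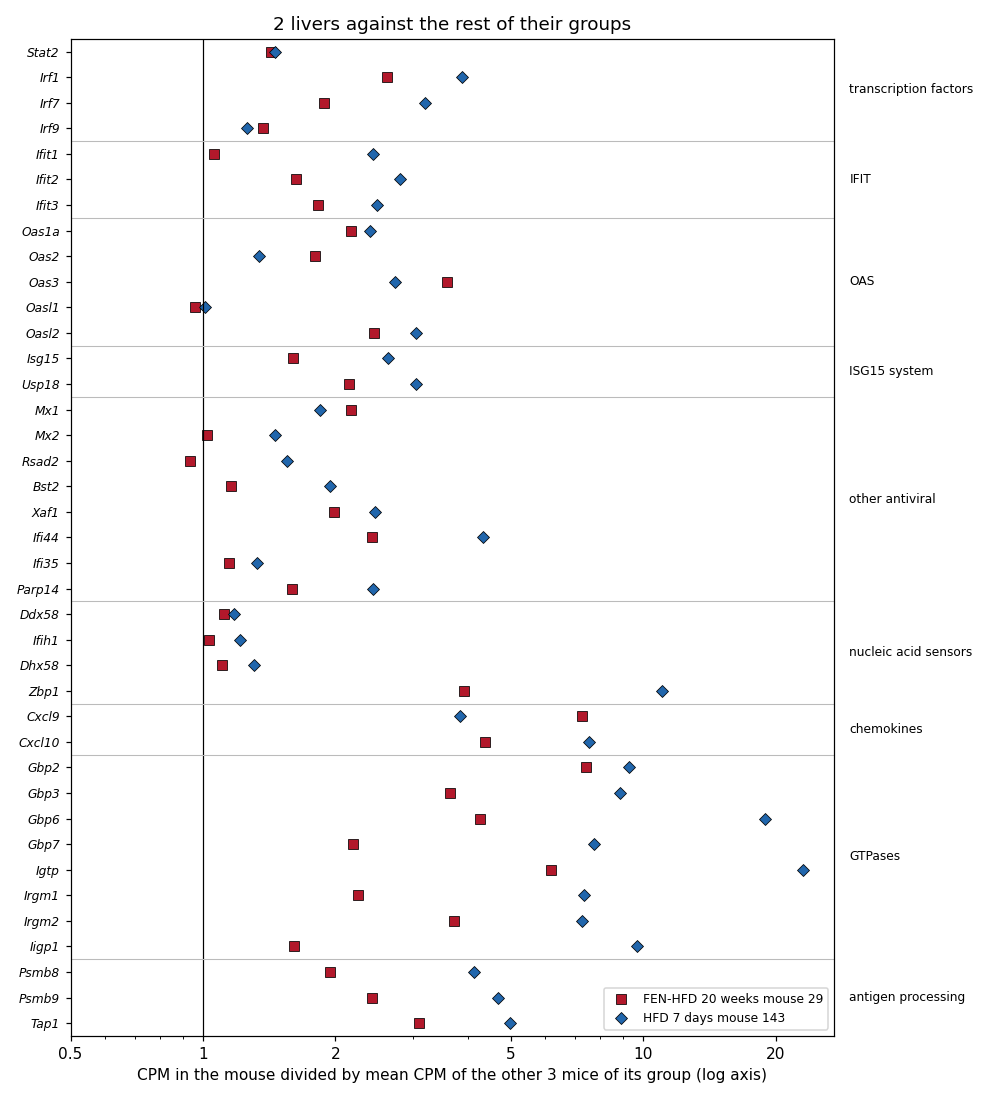
Level of each member in FEN-HFD mouse 29 (squares) and HFD mouse 143 (diamonds) divided by the mean of the other 3 mice of its group (log axis), with members grouped by role. The GTPases reach 23.1-fold in mouse 143 and 7.41-fold in mouse 29, whereas Oasl1, Ddx58 and Ifih1 lie close to 1 in both.

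Markers of immune cells moved with these 2 livers. The summed level of 7 of 8 listed Kupffer cell and macrophage markers reached 1086 CPM in mouse 29, where its group-mates had 457 to 528 CPM, and 1001 CPM in mouse 143, where its group-mates had 456 to 531 CPM. The sum of 10 T and NK cell markers was 16.3 CPM in mouse 29, against 3.09 to 5.73 CPM, and 15.4 CPM in mouse 143, against 5.49 to 6.77 CPM. The sum of 4 B cell markers was 28.4 CPM in mouse 29, against 2.31 to 5.43 CPM, but 5.92 CPM in mouse 143, against 3.89 to 5.66 CPM. The monocyte, neutrophil and dendritic cell sums were also highest of their groups in both mice. Markers outside the immune system moved too. The cholangiocyte sum was 11.8 CPM in mouse 143, against 4.18 to 5.19 CPM, and 4.99 CPM in mouse 29, against 2.46 to 4.70 CPM. The stellate sum was 650 CPM in mouse 29, against 484 to 530 CPM, but 425 CPM in mouse 143, against 478 to 562 CPM. No listed marker was at 0 throughout a group. The part of these cells in the members' levels was not tested. The labelled tissue was borne out in every library, in which 5 of 6 listed hepatocyte markers summed to 63733 to 93835 CPM.

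The first comparison asks whether fenretinide altered these genes. At 20 weeks, 0 of 39 members were higher and 0 were lower in FEN-HFD than in HFD livers at an adjusted p under 0.05 (edgeR quasi-likelihood test, Benjamini-Hochberg over all genes tested). Of all genes tested, 0.769% were called higher and 1.09% lower. Before adjustment 4 members were higher and 1 lower at p under 0.05, DESeq2 called 0 and limma-voom called Oas1a lower. The median log2 fold change of the members was 0.14, beside 0.01 over all genes. FEN-HFD and HFD livers did not overlap for 3 members, of which 2 were higher and 1 lower, beside 6% and 6.8% of all genes.

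Mx2 and Parp14 had the smallest adjusted p at 20 weeks. Mx2, a GTPase of the Mx family, was at 6.85, 6.30, 6.98 and 6.87 CPM in FEN-HFD livers, against 5.13, 4.93, 5.99 and 4.73 CPM in HFD livers (log2 fold change 0.38 ± 0.12 SE, edgeR adjusted p = 0.147). Parp14, an ADP-ribosyltransferase, was at 78.3, 69.8, 67.1 and 115 CPM in FEN-HFD livers, against 57.9, 66.9, 51.9 and 56.3 CPM in HFD livers (log2 fold change 0.50 ± 0.17 SE, edgeR adjusted p = 0.161). Dhx58 (LGP2), a relative of RIG-I that tunes its signal, averaged 10.8 ± 0.943 CPM in FEN-HFD livers and 13.1 ± 0.703 CPM in HFD livers (SD, n = 4 each). Dhx58 was the member whose FEN-HFD livers were all lower, while Mx2 and Parp14 were those whose FEN-HFD livers were all higher. Psmb8, an inducible subunit of the immunoproteasome, was at 52.5, 44.4, 44.5 and 91.5 CPM in FEN-HFD livers, against 28.5, 33.8, 44.8 and 37.7 CPM in HFD livers (log2 fold change 0.68 ± 0.25 SE, edgeR adjusted p = 0.192). Mouse 29 was the highest for Psmb8 and Parp14, but not for Mx2.

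Without mouse 29, again 0 members were higher and 0 lower at 20 weeks, while 1.54% of all genes were called higher and 1.67% lower. The median log2 fold change of the members turned to -0.14, and 26 of 39 were negative, where 26 of 39 had been positive with it. Oas1a, another oligoadenylate synthetase, then came closest, with a log2 fold change of -0.67 ± 0.16 SE (edgeR adjusted p = 0.0552). Before adjustment 3 members were higher and 9 lower at p under 0.05. Gbp2 turned from 0.96 with all 8 libraries to -0.36 without mouse 29, and Igtp from 0.87 to -0.30, both on the log2 scale. Mx2 was at 0.38 with and 0.37 without that mouse. Immune cell markers also differed at 20 weeks. Of 7 macrophage markers tested, 1 was called higher with and without mouse 29 (median log2 fold change 0.64 and 0.36). Their sum was 457 to 528 CPM in FEN-HFD livers without mouse 29, against 364 to 421 CPM in HFD livers. Without that mouse, 1 of 2 monocyte markers tested was called lower (median -1.96). No listed immune cell marker was called at 7 days. The part of such cells in these values was not tested.

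At 7 days, 0 of 39 members were higher and 0 lower in FEN-HFD than in HFD livers, beside 0.0988% and 0% of all genes, and limma-voom and DESeq2 also called 0, although DESeq2 gave an adjusted p for 27 of 39. All 39 log2 fold changes were negative, with a median of -0.49 beside -0.01 over all genes, and a range of -2.32 to -0.03. The smallest edgeR adjusted p was 0.736, and 0 members were higher and 3 lower before adjustment. In no member were the 2 groups apart, beside 1.69% of all genes that were higher without overlap and 1.5% that were lower. The interval of the difference was wide for the genes in which mouse 143 stood out. It was -2.32 (95% confidence interval -5.31 to 0.67) on the log2 scale for Igtp and -0.58 (95% confidence interval -1.38 to 0.22) for Isg15, a ubiquitin-like protein that is attached to others.

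Without mouse 143 the sign of most members at 7 days turned. The calls stayed at 0 higher and 0 lower, with 0.105% and 0.0301% of all genes called, but the median became 0.06 and 26 of 39 log2 fold changes were positive. Gbp2 came closest, at 18.4, 17.5, 17.2 and 22.9 CPM in FEN-HFD livers, against 10.3 to 14.9 CPM in the 3 remaining HFD livers (log2 fold change 0.59 ± 0.15 SE, edgeR adjusted p = 0.283). The 2 groups did not overlap for Gbp2 once mouse 143 was left out. That mouse stood apart by its high levels of these same members, so leaving it out lowers the HFD side. The separation is therefore a description only, and its share over all genes is not given here. Before adjustment 5 members were higher and 1 lower at p under 0.05.

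The retinoid-linked members did not pass either test. Ddx58 was at 36.2, 32.9, 28.8 and 36.5 CPM in FEN-HFD and 33.5, 38.2, 30.9 and 28.6 CPM in HFD livers at 20 weeks. It was at 51.4, 38.7, 36.7 and 35.2 CPM in FEN-HFD and 35.9, 48.2, 44.0 and 43.1 CPM in HFD livers at 7 days. The FEN-HFD and HFD livers overlapped at both times, with a difference of 0.03 (95% confidence interval -0.22 to 0.29) at 20 weeks and -0.08 (95% confidence interval -0.37 to 0.22) at 7 days, both on the log2 scale. For Irf1 the difference was 0.53 (95% confidence interval -0.20 to 1.26) at 20 weeks and -0.56 (95% confidence interval -1.74 to 0.63) at 7 days, and 0.05 without mouse 29 and 0.22 without mouse 143.

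**Figure D3:**
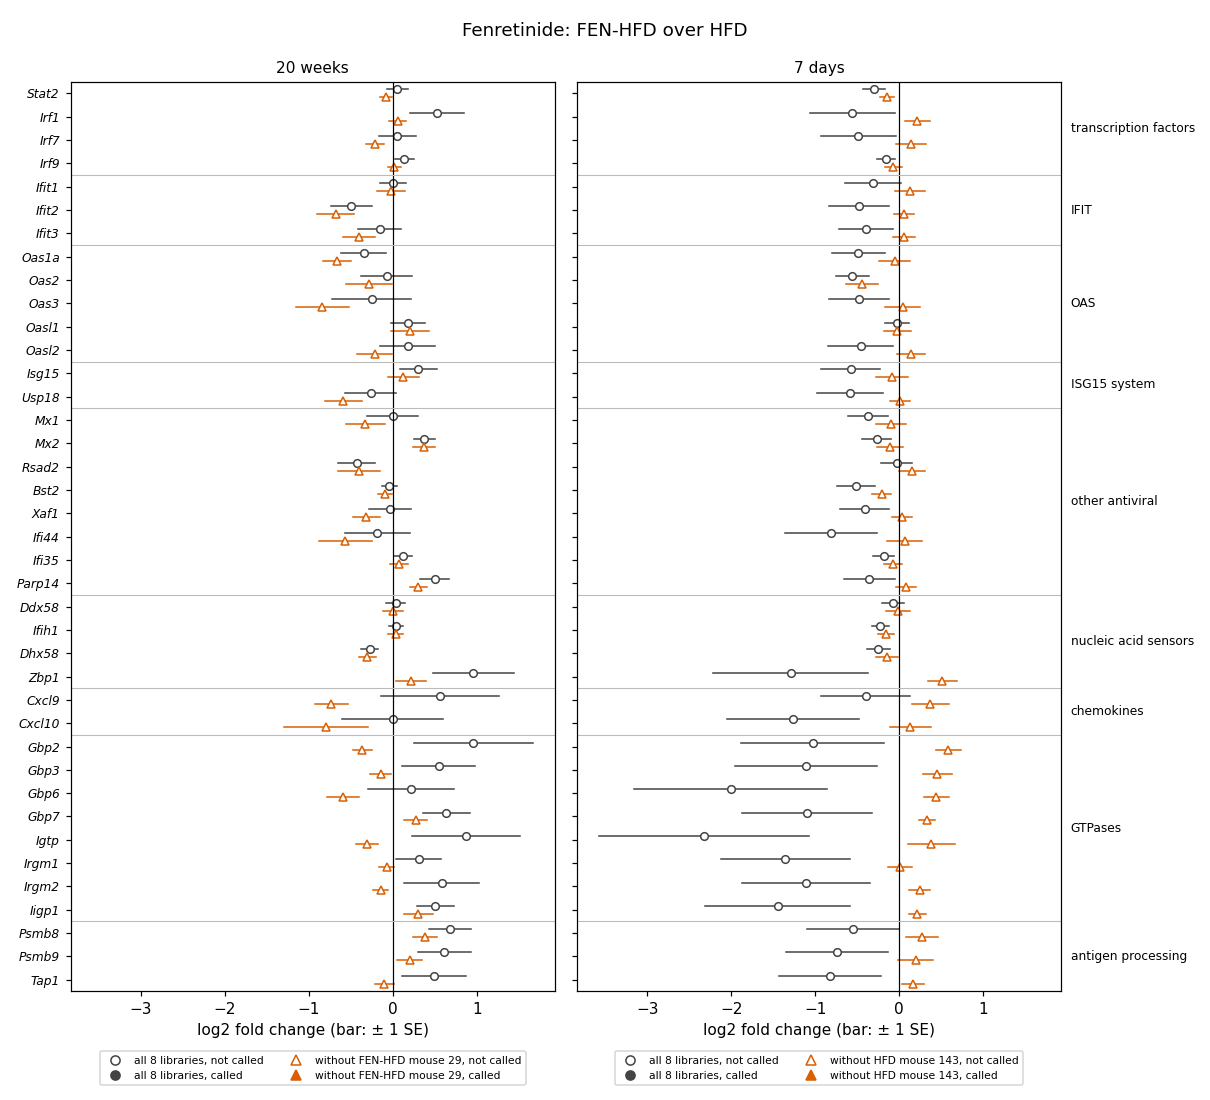
Log2 fold change of FEN-HFD over HFD for each member at 20 weeks and at 7 days (bars: 1 SE), with all 8 libraries of a comparison (circles) and without FEN-HFD mouse 29 or HFD mouse 143 (triangles), and filled symbols for an adjusted p under 0.05. No symbol is filled, and the GTPases at 7 days lie between -2.32 and -1.03 with mouse 143.

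The difference between the 20-week and the 7-day effect of fenretinide was tested in all 16 libraries, and 0 members were called higher or lower, beside 0.00747% and 0.0224% of all genes. DESeq2 and limma-voom also called 0, and before adjustment 4 were higher and 0 lower at p under 0.05. The smallest edgeR adjusted p was 0.381, for Mx2, with a difference of 0.65 (95% confidence interval 0.19 to 1.11) on the log2 scale. The median over the members was 0.61 with all libraries and -0.24 without mice 29 and 143. This contrast is also the difference between the 2 diets in their change over time. It shares its libraries with every other comparison here.

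The second comparison sets 20 weeks against 7 days on the same diet. In HFD livers 6 of 39 members were lower at 20 weeks and 0 were higher, beside 2.73% of all genes lower and 4.78% higher. All 39 log2 fold changes were negative, with a median of -1.11 beside -0.01 over all genes, and 28 members were lower before adjustment. For 19 members every 20-week liver was below every 7-day liver, beside 7.33% of all genes. The 6 members called were the RNA sensor Ifih1, the Mx family GTPases Mx1 and Mx2, the transcription factor Irf9, Oas2 and Isg15.

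Ifih1 (mm10 chromosome 2, 62595798 to 62646255) was at 57.3, 57.7, 54.8 and 46.8 CPM in HFD livers at 20 weeks, against 73.0, 96.4, 82.0 and 83.5 CPM at 7 days (log2 fold change -0.64 ± 0.11 SE, edgeR adjusted p = 0.00876). Mx2 (chromosome 16, 97535308 to 97560900) was at 5.13, 4.93, 5.99 and 4.73 CPM at 20 weeks, against 8.09, 12.9, 8.97 and 9.48 CPM at 7 days (log2 fold change -0.94 ± 0.16 SE, edgeR adjusted p = 0.01). For both genes every 20-week liver was below every 7-day liver, and the call held in each of the 15 alternatives tried. Irf9 was at 34.6, 33.4, 33.0 and 33.1 CPM at 20 weeks, against 40.3, 53.8, 41.0 and 47.0 CPM at 7 days (log2 fold change -0.45 ± 0.10 SE, edgeR adjusted p = 0.0267). Mx1, of which C57BL/6J mice carry a defective allele, was at 2.42, 2.98, 2.36 and 1.82 CPM at 20 weeks, against 3.45, 7.86, 4.999 and 4.34 CPM at 7 days (log2 fold change -1.12 ± 0.27 SE, edgeR adjusted p = 0.0352). Again the groups did not overlap, although mouse 143 was the highest of the 7-day livers for each of these genes. Isg15 was at 3.62, 5.05, 4.06 and 3.23 CPM at 20 weeks, against 6.83, 20.8, 6.74 and 10.2 CPM at 7 days (log2 fold change -1.49 ± 0.38 SE, edgeR adjusted p = 0.0486). Oas2 was at 1.55, 2.23, 1.54 and 2.10 CPM at 20 weeks, against 2.51, 4.39, 3.52 and 3.82 CPM at 7 days (log2 fold change -0.95 ± 0.22 SE, edgeR adjusted p = 0.0331). The 2 groups stood apart for Isg15 and for Oas2 too, by the smallest margin for Oas2.

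Leaving out single HFD mice moved this count between 2 and 10. It was 2 without mouse 25, 33 or 146, 3 without mouse 28 or 45, and 10 without mouse 143, while 2.85% of all genes were lower and 4.18% higher without mouse 143. The 10 were Mx2, Irgm2, Ifih1, Iigp1, Isg15, Parp14, Irf9, Irf7, Gbp7 and Mx1, and Oas2 then had an adjusted p of 0.0621. Irf9 lost its call without mouse 25, 28, 33, 45 or 146 (largest adjusted p 0.0658), and Isg15 without any of these 5 (0.129). Mx1 lost it without mouse 25, 28, 33, 45, 144 or 146 (0.0966), and Oas2 without mouse 25, 33, 143, 144 or 146 (0.101).

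The GTPases depended on mouse 143. The 8 genes had log2 fold changes of -3.07 to -1.72 with it and 0 calls, whereas without it the range was -0.66 to -0.04 and 3 were called. Iigp1 was at 364, 322, 464 and 385 CPM in HFD livers at 20 weeks, against 609, 5819, 587 and 607 CPM at 7 days, where mouse 143 is the second value. Without that mouse its log2 fold change was -0.66 ± 0.12 SE (edgeR adjusted p = 0.0187). Irf7, the amplifier of the type I response, was at 31.7, 29.1, 35.9 and 30.2 CPM at 20 weeks, against 41.0, 147, 41.0 and 56.5 CPM at 7 days (log2 fold change -0.55 ± 0.13 SE, edgeR adjusted p = 0.0377 without mouse 143). The median of all members was -0.45 without mouse 143, and 38 of 39 were negative, Cxcl10 being the exception.

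In FEN-HFD livers 3 of 39 members were lower at 20 weeks than at 7 days and 0 were higher, beside 0.332% of all genes lower and 0.849% higher. The 3 were Ifit1, Ifit2 and Rsad2 (viperin, an enzyme that makes a chain-terminating nucleotide). Ifit1 was at 10.7, 11.98, 12.7 and 12.5 CPM at 20 weeks, against 21.5, 22.2, 22.3 and 20.6 CPM at 7 days (log2 fold change -0.87 ± 0.09 SE, edgeR adjusted p = 0.00129). Rsad2 was at 9.81, 10.6, 11.4 and 9.88 CPM at 20 weeks, against 18.1, 18.8, 17.1 and 14.6 CPM at 7 days (log2 fold change -0.73 ± 0.11 SE, edgeR adjusted p = 0.0119). Ifit2 was at 7.19, 5.29, 7.44 and 10.8 CPM at 20 weeks, against 15.1, 14.3, 14.8 and 14.7 CPM at 7 days (log2 fold change -0.98 ± 0.18 SE, edgeR adjusted p = 0.029). For these 3 genes every 20-week liver was lower, and mouse 29, the last value at 20 weeks, lay within its group for Ifit1 and Rsad2 and was the highest for Ifit2. Over all members 6 showed such a separation, beside 2.46% of all genes, and the median log2 fold change was -0.28 beside 0.01. None of the 3 was called when all 16 libraries entered 1 fit (Ifit1 adjusted p = 0.239). Without mouse 21 Ifit1 was the only one called (Rsad2 adjusted p = 0.0700), and Ifit2 lost its call without any of the other FEN-HFD mice except mouse 29 (adjusted p 0.0517 to 0.131).

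Without mouse 29 the FEN-HFD comparison gave 24 of 39 members lower and 0 higher at 20 weeks, beside 1.66% of all genes lower and 2.05% higher. All 39 log2 fold changes were then negative, with a median of -0.74. Usp18, which removes Isg15 and dampens the type I receptor, was at 7.19 to 8.50 CPM in the 3 remaining 20-week livers, against 18.3, 20.9, 19.5 and 19.8 CPM at 7 days (log2 fold change -1.37 ± 0.11 SE, edgeR adjusted p = 4.19e-05). Igtp was at 23.3 to 27.5 CPM, against 50.2, 46.5, 49.7 and 56.5 CPM at 7 days (log2 fold change -1.03 ± 0.10 SE, edgeR adjusted p = 0.000184). Gbp2 was at 8.72 to 10.2 CPM, against 18.4, 17.5, 17.2 and 22.9 CPM at 7 days (log2 fold change -1.04 ± 0.13 SE, edgeR adjusted p = 0.000823). Each of these 3 genes had its lowest 7-day liver well above its highest remaining 20-week liver. Mouse 29 was the highest of its group for all of them, so leaving it out lowers the 20-week side. By role, 7 of 8 GTPases, 3 of 3 Ifit genes, 3 of 5 Oas genes, 2 of 2 genes of the Isg15 system, 4 of 8 other antiviral genes, 3 of 4 sensors, 1 of 2 chemokines and 1 of 4 transcription factors were lower. None of the 3 antigen processing genes was called (Psmb8 -0.14, Psmb9 -0.20 and Tap1 -0.35 on the log2 scale). The limma-voom fit, which keeps mouse 29 but weights each library by its quality, also called 24 members lower. Such weights can reduce the part of an unlike library, so this is not separate from leaving mouse 29 out. With mouse 29 kept, DESeq2 called 8 members lower and the fit of all 16 libraries called 0. The share of all genes called lower by these alternative fits is not given here, so their counts cannot be set against it.

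The HFD and FEN-HFD comparisons over time share no libraries. With all libraries, 0 genes were called in both. Without mice 29 and 143, Irf7, Isg15, Mx1, Ifih1, Gbp7 and Irgm2 were lower at 20 weeks in both diets, which is 25% of the 24 called in FEN-HFD livers and 60% of the 10 called in HFD livers. With 24 of all 39 members called in FEN-HFD livers, that share of the 10 is no higher than over the members as a whole. Bst2 and Oasl1 were called in neither. Bst2 was at 92.5, 89.5, 83.1 and 102 CPM at 20 weeks and 72.9, 88.6, 100.8 and 90.6 CPM at 7 days in FEN-HFD livers. Oasl1 was at 14.1, 14.8, 8.99 and 12.1 CPM at 20 weeks and 12.7, 13.7, 12.9 and 11.2 CPM at 7 days in FEN-HFD livers. Both genes overlapped between the 2 times.

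**Figure D4:**
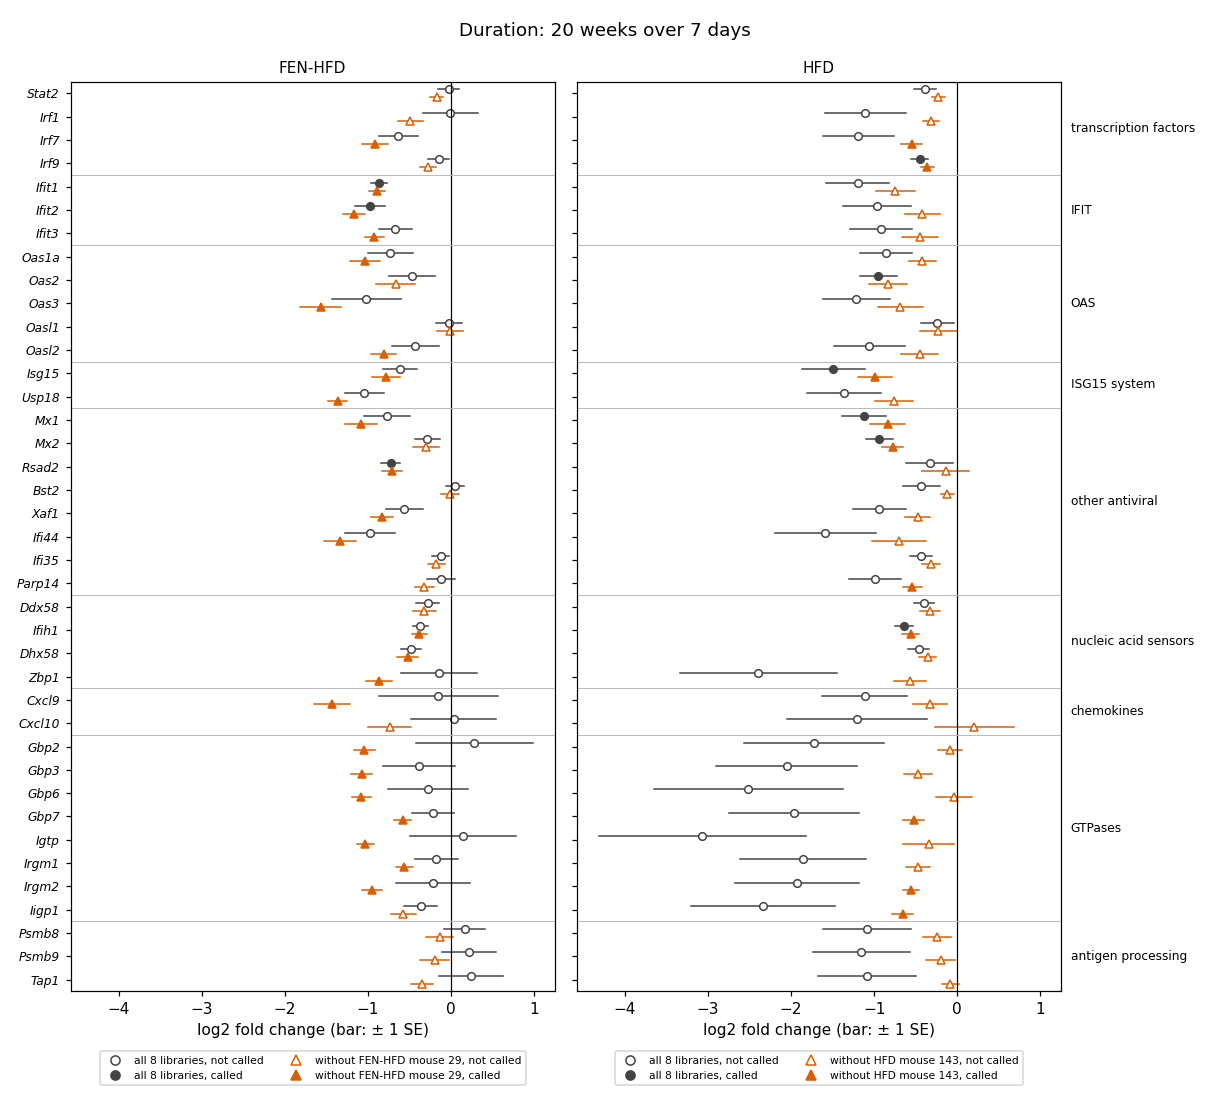
Log2 fold change of 20 weeks over 7 days for each member in FEN-HFD and in HFD livers (bars: 1 SE), with all 8 libraries of a comparison (circles) and without FEN-HFD mouse 29 or HFD mouse 143 (triangles), and filled symbols for an adjusted p under 0.05. With all libraries 3 symbols are filled in FEN-HFD and 6 in HFD livers, and without the mouse 24 and 10.

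Some immune cell markers moved with time on diet. The sum of the T and NK cell markers was 2.87 to 3.27 CPM in HFD livers at 20 weeks. At 7 days it was 5.49 to 15.4 CPM, or 5.49 to 6.77 CPM without mouse 143. Cd4 and Klrb1c were called lower among the 5 of 10 tested. The macrophage sum was 364 to 421 CPM at 20 weeks, with Clec4f and Vsig4 called lower. At 7 days it was 456 to 1001 CPM, or 456 to 531 CPM without mouse 143. In FEN-HFD livers the T and NK cell sum was 3.09 to 5.73 CPM without mouse 29 at 20 weeks, against 5.84 to 8.95 CPM at 7 days, with 0 of 7 markers called. The macrophage sum was 457 to 528 CPM at 20 weeks without mouse 29 and reached 1086 CPM with it, against 494 to 643 CPM at 7 days. Marco was called higher at 20 weeks with and without mouse 29 (log2 fold change 2.58 ± 0.47 SE and 2.06 ± 0.35 SE). The 3 monocyte markers ran the other way in HFD livers, with a sum of 5.76 to 17.5 CPM at 20 weeks. Their sum at 7 days was 4.42 to 13.4 CPM, or 4.42 to 5.46 CPM without mouse 143. Among them Cx3cr1 was called higher with and without mouse 143 (log2 fold change 1.72 ± 0.39 SE and 1.87 ± 0.44 SE). In FEN-HFD livers their sum was 2.66 to 3.48 CPM at 20 weeks without mouse 29, against 5.20 to 6.40 CPM at 7 days, and Ly6c2 and Ccr2 were then called lower. The part of these cells in the fall of the members was not tested.

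The interferons themselves were barely counted. Of 11 listed interferon genes, 8 were at 0 counts in all 16 libraries, which allows up to 0.0857 to 0.312 CPM in a library (3 counts). Ifng had 0 to 7 counts, with 7 in HFD mouse 143 and 4 in FEN-HFD mice 29 and 66, Ifnk at most 2 and Ifnb1 1 count in 1 library. These raw counts do not rank the livers, since depth differed. In mouse 29, 3 counts equal 0.312 CPM, against 0.0955 CPM in mouse 143 and 0.121 CPM in mouse 66. None of the 11 was tested.

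The sensing and feedback genes gave single calls. Irf5, a transcription factor downstream of Toll-like receptors, was lower at 20 weeks in HFD livers (log2 fold change -1.45 ± 0.12 SE, edgeR adjusted p = 0.000529), as was Irf3 (-0.41 ± 0.11 SE, adjusted p = 0.0489), the factor that RIG-I activates. They were 2 of 15 sensing genes tested, both also called without mouse 143, and Irf5 was lower in FEN-HFD livers without mouse 29 (-0.81 ± 0.14 SE, adjusted p = 0.00711). Trim24, a corepressor of retinoic acid receptors that restrains interferon signalling in mouse liver, was the only call among 12 negative regulators with all libraries. Without mouse 29, Rnf125 was also called, lower at 20 weeks in FEN-HFD livers (log2 fold change -0.44 ± 0.11 SE, edgeR adjusted p = 0.0438). Trim24 was higher with fenretinide at 20 weeks (log2 fold change 0.73 ± 0.13 SE, adjusted p = 0.0278) and at 7 days (0.85 ± 0.10 SE, adjusted p = 0.00714), and higher at 20 weeks than at 7 days in FEN-HFD (0.55 ± 0.10 SE, adjusted p = 0.0290) and HFD livers (0.66 ± 0.14 SE, adjusted p = 0.0204). Of 8 inflammatory genes driven by NF-kB, Il1b was higher at 20 weeks in FEN-HFD livers (log2 fold change 1.37 ± 0.25 SE, adjusted p = 0.0290) and 0 were called elsewhere.

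A further list held 60 interferon-inducible genes, of which 57 were tested. Between FEN-HFD and HFD livers 0 of 57 were called at 20 weeks and 0 of 57 at 7 days, with medians of 0.19 and -0.32 on the log2 scale. Both medians changed sign without the outlying mouse, to -0.0496 at 20 weeks without mouse 29 and to 0.0576 at 7 days without mouse 143. Without mouse 29 Ifi47, an immunity-related GTPase, was called higher at 20 weeks (log2 fold change 0.51 ± 0.10 SE, edgeR adjusted p = 0.0278). It was 1 of 57, near the 1.54% of all genes called higher in that setting. At 7 days without mouse 143, 0 were called. In HFD livers Trim14, Nmi and Ifitm3 were lower at 20 weeks and 0 were higher, with a median of -0.58. These were 3 of 57, beside 2.73% of all genes lower. Without mouse 143 the median was -0.22 and 6 were lower, which were the same 3 with Ifi47, Tgtp1 and Uba7. Of all genes 2.85% were then lower. In FEN-HFD livers 0 were called with all libraries and 14 of 57 were lower without mouse 29, beside 1.66% of all genes. Among those 14, the GTPases Gbp10 and Tgtp1 had log2 fold changes of -1.64 ± 0.11 SE and -2.21 ± 0.14 SE (edgeR adjusted p = 1.35e-05 for both).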

How the data were processed

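Liver RNA of 16 mice was sequenced, and the authors deposited raw read counts per gene in 1 table, with mm10, STAR 2.0 and DESeq2 1.6 named in the submitters' processing notes. The counter and its strand setting were not given in the sources used here. Every column belonged to 1 mouse, and groups came from the labels. Counts were filtered with filterByExpr, scaled by TMM factors and tested with the quasi-likelihood F-test of edgeR 4.0.16 (limma 3.58.1, R 4.3.3), within the 8 libraries of each comparison, with all 16 for the difference between effects, and Benjamini-Hochberg adjustment over all genes (threshold 0.05). Scripts were tested on simulated data. Total counts were 19218230 to 32546829. P-values measure the spread between the mice of these groups. Alternatives were DESeq2 1.42.0 and its size factors, limma-voom with quality weights, other filters (none, or at least 10 counts in every library), 1 fit of all libraries, removal of Rn45s and Lars2, and each mouse left out. 1 item is not reported here. The members and lists were chosen with earlier results of these data known. Values of each mouse are given for called members (up to 12 a comparison), the 2 most abundant of each role, and Irf1, Ddx58 and Gbp2. Positions come from GENCODE M21 and promoters from RefSeq (GRCm38.p6).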

Additional observations from a re-analysis of the deposited data

Results flagged for a closer look

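In a group of 4 livers, a mouse was picked out when its gap to the nearest other mouse exceeded 0.829 of the range of the group (Dixon). Chance does this in about 1 in 20 groups of independent values. Of the 100 groups looked at (25 named members in 4 groups) 24 were picked out, 13 for HFD mouse 143, 10 for FEN-HFD mouse 29 and 1 for HFD mouse 33. These 100 groups come from the same 16 livers and the genes are not independent, so the 24 cannot be set against that rate. Values are CPM. The rule scales with the range of the group, so a mouse picked out need not be far above it. FEN-HFD mouse 29 (20 weeks) was picked out as high for Irf1 (110.1), Irf9 (46.5, 1.34 times the next mouse), Oasl2 (8.95), Usp18 (16.4), Cxcl9 (45.9) and Cxcl10 (7.70). It was so too for Gbp2 (69.0), Igtp (155), Psmb8 (91.5) and Tap1 (109). HFD mouse 33 (20 weeks) was picked out as high for Bst2 (103), at only 1.11 times the next mouse. HFD mouse 143 (7 days) was picked out as high for Irf1 (194), Irf7 (147), Ifit2 (39.8), Usp18 (59.4), Bst2 (199), Parp14 (204) and Cxcl9 (50.4). It was so too for Cxcl10 (19.9), Gbp2 (118), Igtp (905), Iigp1 (5819), Psmb8 (175) and Tap1 (198). Over all 39 members mouse 143 was picked out as high for 22, beside 3.72% of all genes, and mouse 29 for 17, beside 6.48%. No member was picked out as low in any liver.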

How the results depend on the processing

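No called member changed direction under any alternative, but the median log2 fold change of the members, which was not tested, changed sign for fenretinide at 20 weeks without mouse 29 and with limma-voom (-0.0817), at 7 days without mouse 143, and for the difference between effects without both mice and with limma-voom. No paired analysis was possible because no mouse number is shared between groups. With limma-voom and quality weights the members' median log2 fold change was -0.0636 for fenretinide at 7 days and -0.61 for HFD over time. It was -0.70 for FEN-HFD over time and -0.00663 for the difference between effects. The same fits called 1 member lower with fenretinide at 20 weeks (Oas1a), 4 in HFD over time and 24 in FEN-HFD over time. DESeq2 called 16 members lower in HFD over time (28 of 39 had an adjusted p) and 8 in FEN-HFD over time (36 of 39). The fit of all 16 libraries called 12 in HFD and 0 in FEN-HFD over time. The cause of these shifts was not tested. Leaving out 1 mouse at a time moved the median to between -0.14 and 0.30 for fenretinide at 20 weeks, -0.69 and 0.0643 at 7 days, -0.74 and -0.16 for FEN-HFD over time, -1.32 and -0.45 for HFD over time, and 0.20 and 0.74 for the difference between effects. It moved the members called lower to between 1 and 24 in FEN-HFD and 2 and 10 in HFD over time. Beyond leaving out mouse 29 or mouse 143, the share of all genes called by these alternatives is not given here. Their counts of members therefore cannot be set against such a share. Leaving out mice 29 and 143 together, chosen after seeing the data, gave a median of -0.24 for the difference between effects. In the library of mouse 29 the 8357336 counts beside Rn45s and Lars2 limit the precision of low genes.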
